A study of Rattus norvegicus with 12 samples.

Results

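The miR-125 and miR-99/100 families are a set of microRNAs (miRNAs) that rat cells load into extracellular vesicles (EVs). The members were all array rows whose rat miRNA name begins with miR-125a, miR-125b, miR-99a, miR-99b or miR-100, and 11 of the 727 rows met that rule. They comprise 5 rows for the 5p arm and 6 rows for the 3p arm. The families were chosen by differences between the EV sources that had been seen on these same arrays, and the study itself had picked miR-125b from them for its higher level in EVs of Thy1-positive cells. Differences of the members between sources are therefore given as descriptions, with the spread between arrays and without a p-value of their own.

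EV miRNA was labelled with the dye Cy3 and hybridised to 12 rat 3D-Gene miRNA arrays, with 1 EV sample per array and 3 arrays for each of 4 sources. Thy1-MC-EVs came from Thy1-positive mesenchymal cells, which were isolated 3 days after liver injury with d-galactosamine from male F344/Nslc rats aged 8 to 10 weeks and which the labels call liver stem cells. MSC-EVs came from bone marrow mesenchymal cells, whose donor rats no source used here describes. SH-EVs came from small hepatocytes, a kind of hepatocytic progenitor grown on hyaluronic acid, and MH-EVs from mature hepatocytes grown on type I collagen. The donors of both kinds of hepatocyte were healthy rats aged 8 to 12 weeks, and the methods name the DPPIV-positive strain, F344/Nslc, as the source of all the liver cells. For Thy1-MCs and MSCs the labels give plastic dishes, whereas the methods give collagen-coated dishes for Thy1-MCs. All cells spent 2 days in serum-free medium before the EVs were collected. Cell type, culture surface and, for Thy1-MC-EVs, the injury of the donor cannot be told apart in this design. In EV preparations, fewer EVs that carry a miRNA and less of it per EV also cannot be told apart. The labels number the replicates without saying whether they were separate cultures, so the spread between arrays may be technical.

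A miRNA gene is transcribed into a hairpin, from which the enzyme Dicer cuts a duplex of a 5p arm and a 3p arm. As a rule one arm, the guide, is loaded into an Argonaute protein and the other, the passenger, is degraded. The seed, bases 2 to 8 of the mature miRNA, dominates the choice of target mRNAs. In both families the 5p arm is known as the guide. The miR-125 family descends from the same ancestor as lin-4 of Caenorhabditis elegans, a regulator of developmental timing, and the miR-99/100 family is known in human cells to repress mTOR, a kinase that controls cell growth.

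RefSeq held mature sequences for 10 of the 11 members in the rat assembly GRCr8, and miR-99a-5p had no entry there. The mature sequences of the 5p arms with an entry and of the 3p arms of the miR-125 family are shown 5′ to 3′ with the seed in capitals. The seeds set out which members belong together.
miR-125a-5p: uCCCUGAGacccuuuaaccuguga
miR-125b-5p: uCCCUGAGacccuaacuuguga
miR-99b-5p: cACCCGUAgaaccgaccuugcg
miR-100-5p: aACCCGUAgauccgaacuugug
miR-125a-3p: aCAGGUGAgguucuugggagcc
miR-125b-1-3p: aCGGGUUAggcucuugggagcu
miR-125b-2-3p: aCAAGUCAggcucuugggaccu
The 2 guide arms of the miR-125 family share 1 seed, and miR-99b-5p and miR-100-5p share another. Against miR-99b-5p, miR-100-5p carries the substitutions C1A, A11U, C16A and C21U, counted from 1 at the 5′ end, and all of them lie outside the seed. The 3p arms of the miR-125 family have 3 different seeds. From miR-125a-3p to miR-125b-1-3p the substitutions are A3G, G7U, U11C and C22U, of which A3G and G7U lie in the seed. How far such similar miRNAs bind to each other's probes was not tested.

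The 2 hairpins with both arms detected on every array are shown 5′ to 3′ with both mature arms in capitals. The Mir125a hairpin lies at chr1:67350675-67350759 and the Mir125b1 hairpin at chr8:50850036-50850122, both on the plus strand of GRCr8.
Mir125a: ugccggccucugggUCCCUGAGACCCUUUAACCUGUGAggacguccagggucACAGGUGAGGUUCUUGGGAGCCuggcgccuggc
Mir125b1: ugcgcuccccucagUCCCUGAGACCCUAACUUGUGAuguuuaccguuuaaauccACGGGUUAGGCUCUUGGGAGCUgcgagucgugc
The complete sequence of miR-125b-5p stands in the Mir125b1 hairpin, while RefSeq places its mature entry at the second gene, Mir125b2, at chr11:29732588-29732609. A signal for miR-125b-5p can therefore come from either gene, whereas miR-125b-1-3p and miR-125b-2-3p each belong to 1 of them.

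The genes form 3 clusters, each with a miR-99/100 gene, a let-7 gene and a miR-125 gene. On chromosome 1, Mir99b, Mirlet7e and Mir125a lie within 696 bases inside the gene Spaca6. On chromosome 8, Mir100, Mirlet7a-2 and Mir125b1 span 51.8 kb inside the long noncoding host gene Mir100hgl, and on chromosome 11, Mir99a, Mirlet7c1 and Mir125b2 span 45.3 kb. The chromosome 1 cluster is thus far more compact than the others.

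Levels are log2 intensities after background correction and quantile normalization, which gives all arrays the same distribution of values. The level of a probe was set only against the same probe on other arrays, and the levels of several probes were added up only for the marker lists, where the brightest probes weigh most. Between 174 and 528 miRNAs were detected per array, with 228 to 359 in Thy1-MC-EVs, 174 to 256 in MSC-EVs, 271 to 330 in SH-EVs and 425 to 528 in MH-EVs. The spike-in control set the MH-EV arrays apart. Its mean raw intensity was 5139 to 7915 on MH-EV arrays and 28678 to 32905 on the others. As a check of the cell type labels, the hepatocyte list (miR-122-5p, miR-192-5p and miR-194-5p) summed to a linear level of 654 to 1651 in Thy1-MC-EVs, 426 to 682 in MSC-EVs, 596 to 944 in SH-EVs and 16172 to 23383 in MH-EVs. MH-EVs were thus far above the other sources, whose order differed between the listed miRNAs. MiR-122-5p averaged 9.57 in Thy1-MC-EVs, 8.46 in MSC-EVs and 8.65 in SH-EVs on the log2 scale, miR-192-5p 6.77, 6.47 and 7.90, and miR-194-5p 6.57, 6.03 and 7.09. All 3 were detected on every SH-EV array, whereas miR-122-5p was the only one of them detected on every array of Thy1-MC-EVs or of MSC-EVs.

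Of the 11 members, 7 were detected on all 12 arrays, namely all 5 of the 5p arms and 2 of the 3p arms, miR-125a-3p and miR-125b-1-3p. A further 2 of the 3p arms, miR-125b-2-3p and miR-99b-3p, were detected on every MH-EV array, and so 9 members entered the fit across 387 miRNAs. The fit was a linear model with moderated variances (limma).

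MiR-125a-5p (rno-miR-125a-5p on the array), a guide arm from chromosome 1, had its highest levels in Thy1-MC-EVs and its lowest in MH-EVs under the main scaling. Its log2 level was 9.48, 9.48 and 9.11 on the Thy1-MC-EV arrays, 8.15, 8.45 and 8.45 in MSC-EVs, 8.42, 8.23 and 8.28 in SH-EVs, and 7.09, 7.11 and 7.92 in MH-EVs. Thy1-MC-EVs lay above and MH-EVs below every array of the other sources, while MSC-EVs and SH-EVs overlapped. Thy1-MC-EVs exceeded MSC-EVs by 1.01 ± 0.21 (log2 difference ± SE, n = 3 arrays each), SH-EVs by 1.05 ± 0.21 and MH-EVs by 1.98 ± 0.21, and the difference from MH-EVs was -0.55 with scaling to the spike-in control. MSC-EVs and SH-EVs differed by 0.04 ± 0.21. The place of MH-EVs turned with the scaling, since MSC-EVs over MH-EVs was 0.97 under the main scaling, -1.02 with the authors' normalized intensity and -2.24 with spike-in scaling, and SH-EVs over MH-EVs was 0.93, -0.25 and -1.52 in the same order.

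MiR-125b-5p (rno-miR-125b-5p), the guide arm made from both Mir125b genes, was high in both mesenchymal sources and low in both hepatocytic ones under the main scaling. Its log2 level was 11.04, 11.17 and 9.82 in Thy1-MC-EVs, 10.46, 10.64 and 10.34 in MSC-EVs, 8.38, 8.33 and 8.38 in SH-EVs, and 9.48, 9.18 and 9.07 in MH-EVs. Thy1-MC-EVs and MSC-EVs overlapped because Thy1-MC-EV replicate 3 was below all MSC-EV arrays, and SH-EVs were below every array of MH-EVs. Thy1-MC-EVs exceeded SH-EVs by 2.31 ± 0.29 and MSC-EVs exceeded SH-EVs by 2.11 ± 0.29, and neither of these differences turned under any scaling, although the difference between MSC-EVs and SH-EVs was 1.10 with spike-in scaling and no longer passed the threshold there. Thy1-MC-EVs differed from MSC-EVs by 0.20 ± 0.29, or by 0.63 without Thy1-MC-EV replicate 3, where the difference passed the threshold. This main value was the smallest of the 6 scalings, which gave 1.14 with the authors' normalized intensity and 1.29 with spike-in scaling. In the authors' normalized intensity the arrays of both sources did not overlap, at 435.7 to 498.8 in Thy1-MC-EVs and 142.3 to 320.1 in MSC-EVs. Against MH-EVs, Thy1-MC-EVs were 1.44 ± 0.29 and MSC-EVs 1.24 ± 0.29 higher, but both differences turned negative with the authors' normalized intensity (-0.30 and -1.44) and with spike-in scaling (-1.48 and -2.77).

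Under the main scaling, the mesenchymal list (miR-143-3p, miR-145-5p, miR-199a-5p, miR-199a-3p and miR-214-3p) was also higher as a sum in both mesenchymal sources than in the hepatocytic ones. Its miRNAs did not follow miR-125b-5p one by one. Its summed linear level ranged over 2241 to 3502 in Thy1-MC-EVs, 2313 to 5304 in MSC-EVs, 900 to 1096 in SH-EVs and 1058 to 1390 in MH-EVs. All 5 of its miRNAs were detected on every array of Thy1-MC-EVs, MSC-EVs and MH-EVs, and 3 of 5 on every array of SH-EVs. In limma under the main scaling Thy1-MC-EVs exceeded SH-EVs in 3 of the 5 and MH-EVs in 2. MSC-EVs exceeded SH-EVs in 4 and MH-EVs in 4. For Thy1-MC-EVs over MSC-EVs 0 were higher, also at an unadjusted p under 0.05, and 2 were lower, miR-143-3p (log2 difference of -1.29) and miR-199a-3p (-1.35). MiR-214-3p passed in none of the 6 comparisons. In the authors' normalized intensity, miR-214-3p in MH-EVs (197.3 to 753.3) lay above every MSC-EV array (45.4 to 144.9). MiR-145-5p in MH-EVs (255.7 to 439.5) lay within the spans of Thy1-MC-EVs (174.8 to 1054.1) and MSC-EVs (109.6 to 564.2). There miR-143-3p and miR-199a-5p of MH-EVs overlapped with both mesenchymal sources. MiR-199a-3p stayed lower in MH-EVs (3.9 to 13.4) than in MSC-EVs (25.4 to 125.4). The sum was computed under the main scaling only. The erythroid list (miR-451-5p and miR-144-3p) summed to 1511 to 2911 in Thy1-MC-EVs, 3925 to 4756 in MSC-EVs, 131 to 134 in SH-EVs and 112 to 127 in MH-EVs, and no SH-EV array detected either of its miRNAs. Whether the cells that these lists mark account for the levels of miR-125b-5p was not tested.

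MiR-99b-5p (rno-miR-99b-5p), the guide arm encoded beside miR-125a, followed another order, with SH-EVs at the top. Its log2 level was 8.09, 8.65 and 8.76 in Thy1-MC-EVs, 7.74, 8.50 and 8.32 in MSC-EVs, 9.18, 9.88 and 9.69 in SH-EVs, and 6.61, 6.71 and 6.99 in MH-EVs. SH-EVs lay above and MH-EVs below every array of the other sources, and Thy1-MC-EVs and MSC-EVs overlapped with a difference of 0.31 ± 0.25. SH-EVs exceeded MH-EVs by 2.81 ± 0.25, and this difference stayed positive under every scaling, from 0.45 to 3.59. Over SH-EVs the difference was -1.08 ± 0.25 for Thy1-MC-EVs and -1.40 ± 0.25 for MSC-EVs. Over MH-EVs it was 1.73 ± 0.25 for Thy1-MC-EVs and 1.42 ± 0.25 for MSC-EVs, and spike-in scaling turned both signs (-0.56 and -1.48).

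MiR-99a-5p (rno-miR-99a-5p), from chromosome 11, and miR-100-5p (rno-miR-100-5p), from chromosome 8, did not share the order of miR-99b-5p. The log2 level of miR-99a-5p was 9.58, 9.62 and 10.28 in Thy1-MC-EVs, 8.45, 9.38 and 8.55 in MSC-EVs, 8.87, 9.54 and 9.25 in SH-EVs, and 9.62, 9.51 and 11.74 in MH-EVs. For miR-100-5p it was 9.04, 9.00 and 9.73 in Thy1-MC-EVs, 7.90, 9.14 and 8.23 in MSC-EVs, 8.04, 8.94 and 8.64 in SH-EVs, and 8.66, 8.82 and 10.99 in MH-EVs. For both miRNAs the highest array was MH-EV replicate 3, and under the main scaling the other MH-EV arrays lay within the span of the remaining sources.

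Under the main scaling the height of the MH-EV means of miR-99a-5p and miR-100-5p therefore rested on 1 array. Thy1-MC-EVs minus MH-EVs was -0.46 ± 0.52 for miR-99a-5p and -0.24 ± 0.56 for miR-100-5p, and without MH-EV replicate 3 it was 0.27 and 0.51. MSC-EVs minus MH-EVs was -1.50 ± 0.52 for miR-99a-5p, and -0.77 without that array. With all arrays, Thy1-MC-EVs minus MH-EVs was negative under all 6 scalings, at -3.48 to -0.46 for miR-99a-5p and -3.37 to -0.24 for miR-100-5p. In the authors' normalized intensity every MH-EV array of miR-99a-5p (674.4 to 2951.3) was above all others (at most 669.2). For miR-100-5p the MH-EV arrays (388.2 to 1759.4) overlapped with Thy1-MC-EVs (69.3 to 398.6). Thy1-MC-EVs exceeded MSC-EVs by 1.03 ± 0.52 for miR-99a-5p, with arrays that did not overlap, and by 0.83 ± 0.56 for miR-100-5p, with arrays that overlapped. With the authors' normalized intensity these differences were 2.02 and 1.72. Thy1-MC-EVs lay above every SH-EV array for both miRNAs, by 0.60 ± 0.52 for miR-99a-5p and 0.72 ± 0.56 for miR-100-5p, which is little more than the SE.

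**Figure D1:**
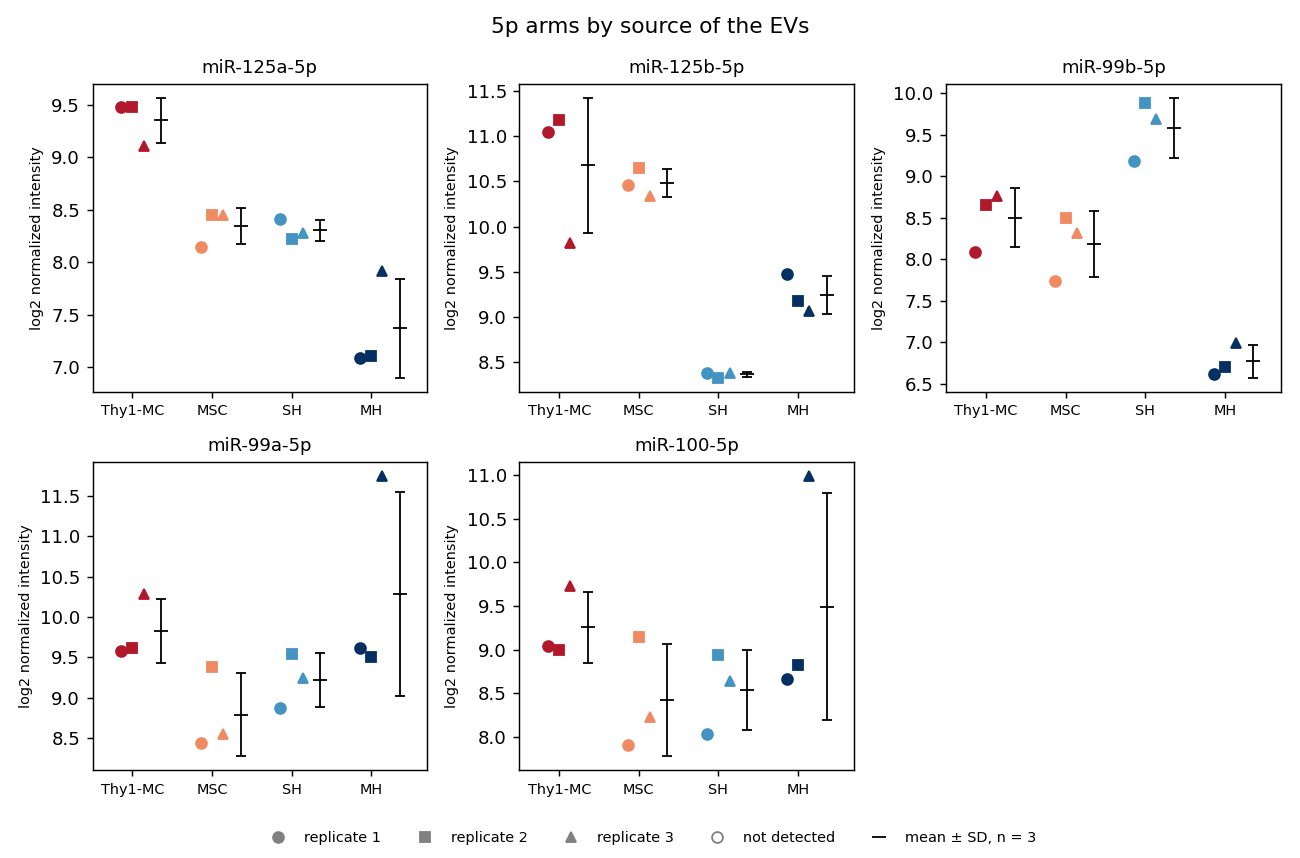
Log2 normalized intensity (y axis) of the 5 guide arms on each array by EV source (x axis), with symbols for replicates and bars for the mean ± SD of 3 arrays. MiR-125a-5p is highest in Thy1-MC-EVs, miR-125b-5p in Thy1-MC-EVs and MSC-EVs, and miR-99b-5p in SH-EVs, while MH-EV replicate 3 stands alone at 11.74 for miR-99a-5p and 10.99 for miR-100-5p. Scaling to the spike-in control turns the differences of miR-125a-5p, miR-125b-5p and miR-99b-5p in Thy1-MC-EVs from MH-EVs to negative values.

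MiR-125a-3p (rno-miR-125a-3p), the passenger arm of the Mir125a hairpin, was higher in Thy1-MC-EVs than on any array of the other sources under the main scaling. Its log2 level was 12.99, 13.98 and 12.99 in Thy1-MC-EVs, 12.07, 10.76 and 11.53 in MSC-EVs, 10.53, 11.33 and 10.90 in SH-EVs, and 10.90, 11.44 and 9.66 in MH-EVs. Its raw intensity, before any scaling, was 5875 to 25242 in Thy1-MC-EVs, 1167 to 1809 in MSC-EVs, 844 to 4243 in SH-EVs and 2062 to 3626 in MH-EVs. The MH-EV arrays were also the dimmest in the spike-in control, so raw values do not put them on the scale of the others. In the authors' normalized intensity Thy1-MC-EVs (1965.3 to 5512.4) overlapped with MH-EVs (804.5 to 2102.5). They did not overlap there with MSC-EVs (343 to 517.4) or SH-EVs (309.8 to 664.2). Thy1-MC-EVs exceeded MSC-EVs by 1.87 ± 0.47, SH-EVs by 2.40 ± 0.47 and MH-EVs by 2.66 ± 0.47, and the difference from MH-EVs stayed positive under every scaling, from 0.16 to 3.14. The other sources overlapped with each other.

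MiR-125b-1-3p (rno-miR-125b-1-3p), the passenger arm of Mir125b1 alone, was also above all other arrays in Thy1-MC-EVs under the main scaling. Its log2 level was 11.33, 12.40 and 11.44 in Thy1-MC-EVs, 10.11, 9.00 and 9.62 in MSC-EVs, 10.11, 10.46 and 10.34 in SH-EVs, and 9.00, 9.82 and 8.64 in MH-EVs. Thy1-MC-EVs exceeded MSC-EVs by 2.15 ± 0.37 and SH-EVs by 1.42 ± 0.37, and MH-EVs by 2.57 ± 0.37 or -0.22 with spike-in scaling. SH-EVs were above every MH-EV array by 1.15 ± 0.37, which the authors' normalized intensity (-0.67) and spike-in scaling (-1.79) turned round. MSC-EVs overlapped with both SH-EVs and MH-EVs.

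The other 3p arms were near the detection limit. MiR-125b-2-3p (rno-miR-125b-2-3p), the passenger arm of Mir125b2, averaged 6.71 in Thy1-MC-EVs, 6.49 in MSC-EVs, 6.44 in SH-EVs and 6.50 in MH-EVs and was detected on 2, 1, 2 and 3 arrays of these sources. MiR-99b-3p averaged 6.57 in Thy1-MC-EVs, 6.41 in MSC-EVs, 6.44 in SH-EVs and 6.62 in MH-EVs and was detected on 2, 1, 3 and 3 arrays. MiR-99a-3p was detected on 1 of 12 arrays, in MH-EVs, and miR-100-3p on none, so neither was tested. For these 4 passenger arms the arrays give no level that can be compared between sources.

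**Figure D2:**
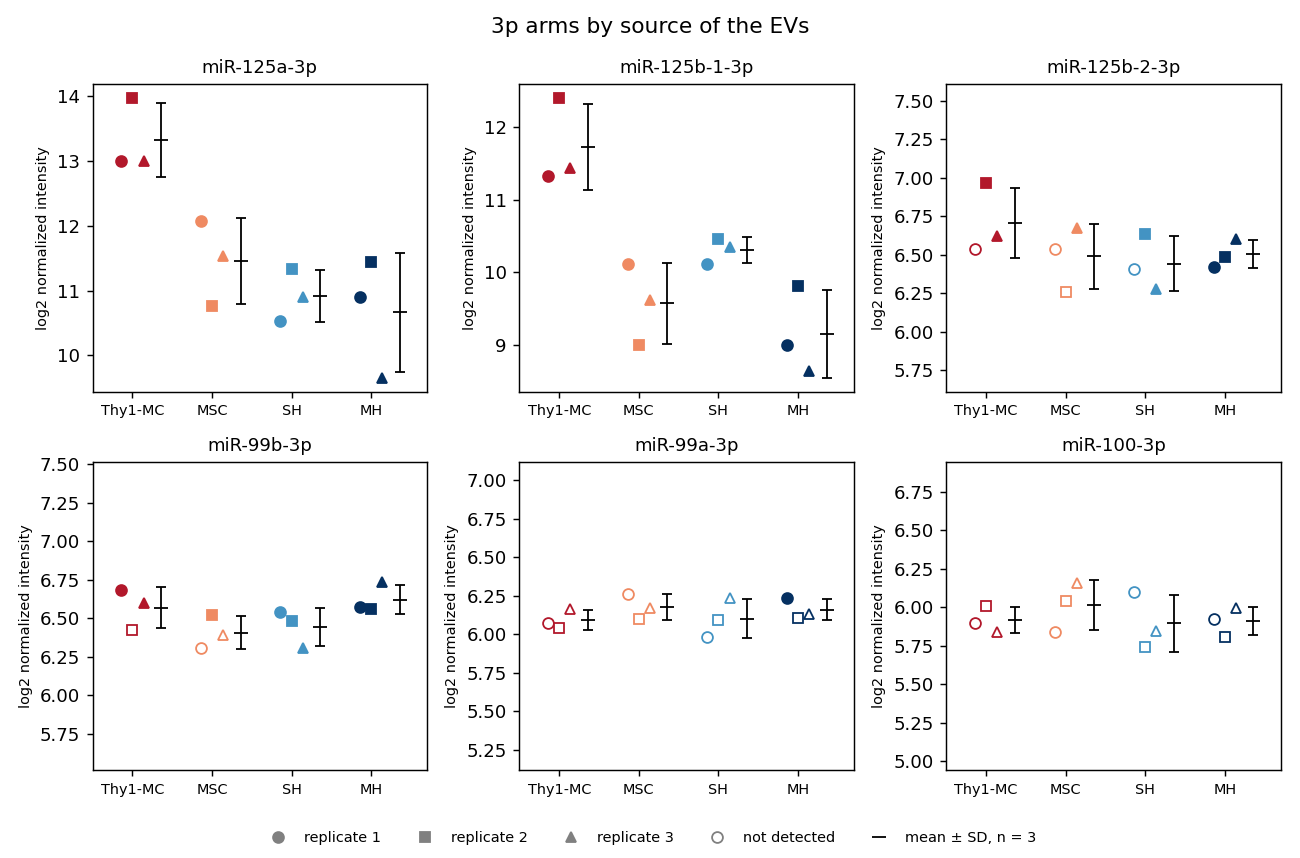
Log2 normalized intensity (y axis) of the 6 passenger arms on each array by EV source (x axis), with open symbols where the miRNA was not detected and bars for the mean ± SD of 3 arrays. MiR-125a-3p and miR-125b-1-3p are higher on all Thy1-MC-EV arrays than on any other array (at least 12.99 and 11.33 on the log2 scale), a difference that spike-in scaling turns to -0.22 for miR-125b-1-3p against MH-EVs, and the other 4 stay between 5.74 and 6.96.

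Guide and passenger arms of 1 hairpin were compared through their changes between sources. A shift of all log2 values of an array cancels in a difference taken within that array. Quantile normalization is not such a shift, so these differences still depended on the scaling. For Mir125b1, the change of miR-125b-5p minus the change of miR-125b-1-3p was -1.95 ± 0.48 for Thy1-MC-EVs over MSC-EVs, 2.84 ± 0.48 for MSC-EVs over SH-EVs and -2.03 ± 0.48 for SH-EVs over MH-EVs, and the arrays of the sources did not overlap in any of these. Between Thy1-MC-EVs and MSC-EVs the passenger arm thus differed more than the guide arm, whereas SH-EVs had the lowest guide arm and, under the main scaling, a passenger arm above that of MH-EVs. The difference for Thy1-MC-EVs over SH-EVs was 0.89 ± 0.48 with arrays that did not overlap, and that for Thy1-MC-EVs over MH-EVs was -1.13 ± 0.48 with arrays that overlapped. Over all background corrections and scalings the values were -2.09 to -1.81 for Thy1-MC-EVs over MSC-EVs, 2.67 to 3.24 for MSC-EVs over SH-EVs and -2.36 to -1.89 for SH-EVs over MH-EVs. Because miR-125b-5p is also made from Mir125b2, this comparison is not limited to the arms of 1 gene.

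For Mir125a, the arms diverged less clearly. The change of miR-125a-5p minus that of miR-125a-3p was -1.35 ± 0.71 for Thy1-MC-EVs over SH-EVs, where the arrays did not overlap. It was -0.86 ± 0.71 for Thy1-MC-EVs over MSC-EVs and -0.68 ± 0.71 for Thy1-MC-EVs over MH-EVs, with overlapping arrays in both, and without MH-EV replicate 3 the second of these was 0.10. Over the background corrections and scalings the values for Thy1-MC-EVs were -1.80 to -1.19 over SH-EVs, -1.59 to -0.69 over MSC-EVs and -0.84 to -0.03 over MH-EVs. Under the main scaling both arms were highest in Thy1-MC-EVs, although miR-125a-5p was lower there than in MH-EVs with spike-in scaling (-0.55). The passenger arm differed more over SH-EVs, whereas over MSC-EVs and MH-EVs the arm difference was about as large as its SE.

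**Figure D3:**
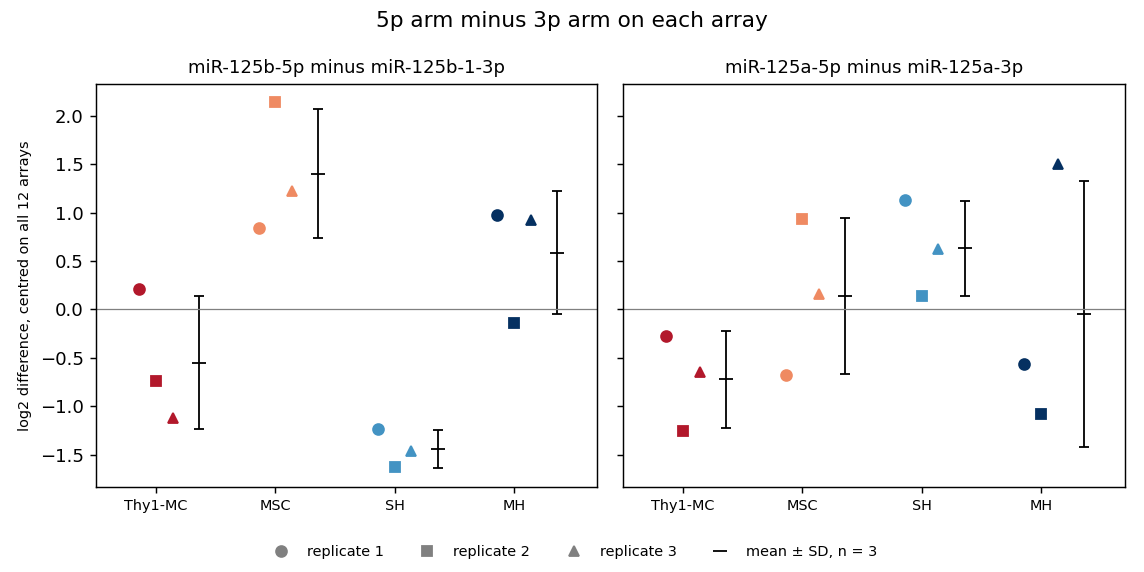
Log2 level of the 5p arm minus that of the 3p arm on each array (y axis), centred on the mean of all 12 arrays, by EV source (x axis), with bars for the mean ± SD of 3 arrays. For miR-125b and miR-125b-1-3p the MSC-EV arrays lie at 0.84 to 2.14 and the SH-EV arrays at -1.63 to -1.23, and for miR-125a the MH-EV arrays spread over -1.08 to 1.51.

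The passenger arms of Mir125a and Mir125b1, which lie on different chromosomes, differed little in their change between Thy1-MC-EVs and either MSC-EVs or MH-EVs. The change of miR-125a-3p minus that of miR-125b-1-3p was -0.28 ± 0.21 for Thy1-MC-EVs over MSC-EVs, a small difference in which the arrays nevertheless did not overlap, and it ranged from -0.39 to 0.08 over the background corrections and scalings. It was 0.09 ± 0.21 for Thy1-MC-EVs over MH-EVs, with overlapping arrays. It was 0.98 ± 0.21 for Thy1-MC-EVs over SH-EVs, with arrays that did not overlap.

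Within the miR-99/100 family, miR-99b-5p parted from miR-99a-5p and miR-100-5p. The change of miR-99b-5p minus that of miR-99a-5p was 3.88 ± 0.48 for SH-EVs over MH-EVs, 2.19 ± 0.48 for Thy1-MC-EVs over MH-EVs and -1.69 ± 0.48 for Thy1-MC-EVs over SH-EVs, and the change of miR-99b-5p minus that of miR-100-5p was 3.77 ± 0.50, 1.97 ± 0.50 and -1.80 ± 0.50 in the same comparisons. None of these 6 sets of arrays overlapped. The differences over MH-EVs were widened by MH-EV replicate 3, and without it they were 3.26 for SH-EVs and 1.58 for Thy1-MC-EVs against miR-99a-5p, and 3.13 and 1.33 against miR-100-5p. Over the background corrections and scalings, Thy1-MC-EVs over MH-EVs ranged from 1.93 to 3.61 against miR-99a-5p and from 1.72 to 3.55 against miR-100-5p. SH-EVs over MH-EVs ranged from 3.50 to 5.53 and from 3.37 to 5.44, and the main values were below those of every other scaling. By contrast, the change of miR-99a-5p minus that of miR-100-5p lay between -0.43 and 0.20 in the 6 comparisons, with an SE of 0.10, and the arrays of Thy1-MC-EVs and MH-EVs, of MSC-EVs and SH-EVs and of MSC-EVs and MH-EVs did not overlap. The high values of MH-EV replicate 3 occurred in both miR-99a-5p and miR-100-5p and cancelled in their difference.

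The guide arms of the miR-125 family, which share a seed, also differed in their order of sources. The change of miR-125a-5p minus that of miR-125b-5p was -1.26 ± 0.35 for Thy1-MC-EVs over SH-EVs, -2.07 ± 0.35 for MSC-EVs over SH-EVs and 1.81 ± 0.35 for SH-EVs over MH-EVs, without overlap of the arrays. It was 0.81 ± 0.35 for Thy1-MC-EVs over MSC-EVs. Over the background corrections and scalings the values ran from -1.54 to -1.21, -2.38 to -1.82, 1.61 to 2.77 and 0.40 to 1.01 in the order given. SH-EVs had the lowest miR-125b-5p of all sources, whereas their miR-125a-5p overlapped with that of MSC-EVs and lay above that of MH-EVs under the main scaling, a difference that turned negative with the authors' normalized intensity (-0.25) and spike-in scaling (-1.52).

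**Figure D4:**
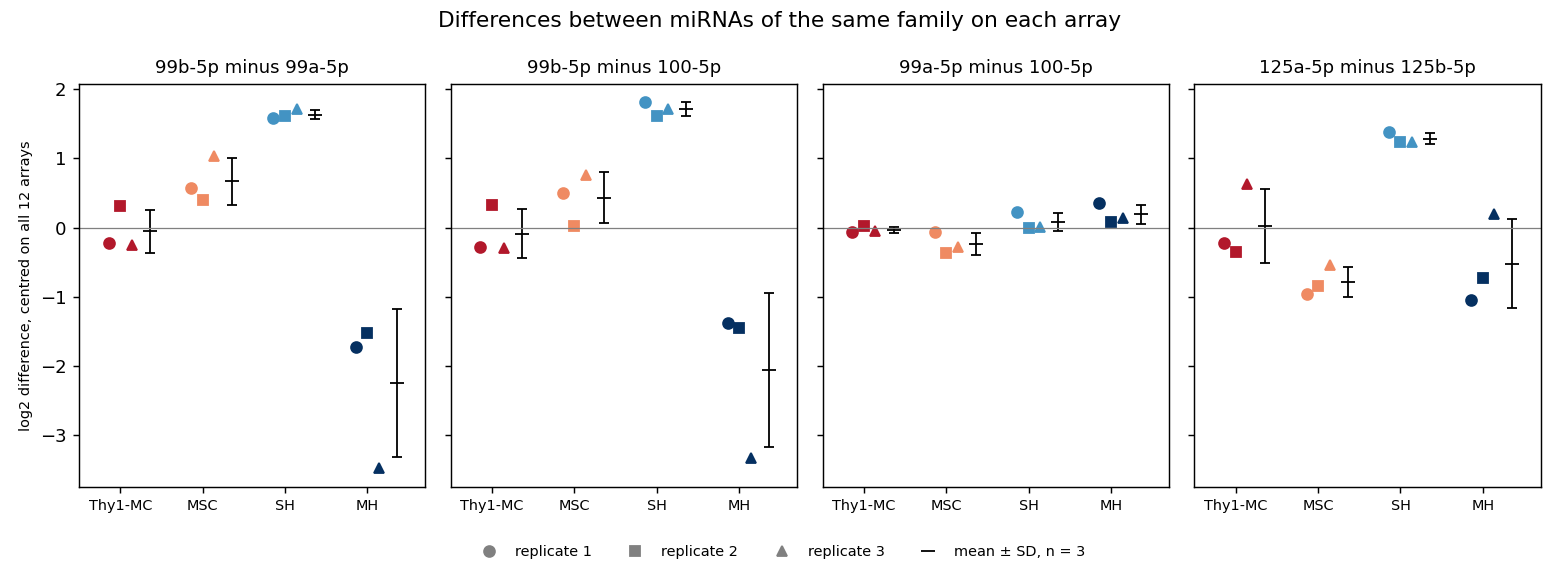
Log2 difference on each array between the 5p arms of members of 1 family (y axis), centred on the mean of all 12 arrays, by EV source (x axis), with bars for the mean ± SD of 3 arrays. MiR-99b-5p minus miR-99a-5p lies at 1.58 to 1.71 in SH-EVs and at -3.48 to -1.53 in MH-EVs, while miR-99a-5p minus miR-100-5p stays between -0.37 and 0.35 on all arrays.

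Members past the threshold (adjusted p under 0.05 over the 387 tested miRNAs) were counted per comparison, and the background is the percentage of all tested miRNAs past it in that direction. Since differences between these sources chose the families, nothing is read from the counts. For Thy1-MC-EVs over MSC-EVs 3 of 9 members were higher (miR-125a-5p, miR-125a-3p and miR-125b-1-3p; background 12.9%) and 0 lower (background 10.6%). For Thy1-MC-EVs over SH-EVs 4 were higher (those 3 and miR-125b-5p; background 6.98%) and 1, miR-99b-5p, lower (background 7.49%). For Thy1-MC-EVs over MH-EVs 5 were higher (those 4 and miR-99b-5p; background 14.5%) and 0 lower (background 15.5%). For MSC-EVs over SH-EVs, miR-125b-5p was higher (background 12.1%) and miR-99b-5p lower (background 15.5%). For MSC-EVs over MH-EVs, miR-125a-5p, miR-125b-5p and miR-99b-5p were higher (background 14.7%) and miR-99a-5p lower (background 20.7%). For SH-EVs over MH-EVs, miR-125a-5p, miR-99b-5p and miR-125b-1-3p were higher (background 15.0%) and miR-125b-5p lower (background 17.6%). At an unadjusted p under 0.05 in limma the counts of members in each direction were the same, the counts of 0 included.

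The split of the members depended on the scaling. For Thy1-MC-EVs over SH-EVs, miR-99b-5p no longer passed under any scaling but the main one, although its difference stayed between -1.19 and -0.88. Under these other scalings 1 to 4 members were higher, and of all tested miRNAs 4 to 21 were higher and 1 to 24 lower. For MSC-EVs over SH-EVs, 0 members were higher and 0 lower with spike-in scaling, where limma gave 1 higher and 2 lower at an unadjusted p under 0.05. Of all tested miRNAs 8 were higher and 41 lower there. The split moved most where MH-EVs were compared. With spike-in scaling 0 members were higher and 5 lower for Thy1-MC-EVs, 0 higher and 9 lower for MSC-EVs, and 0 higher and 8 lower for SH-EVs over MH-EVs, while with the authors' normalized intensity the split was 1 and 3, 0 and 7, and 1 and 6. The counts of 0 over MH-EVs under these scalings were also 0 at an unadjusted p under 0.05 in limma. Over all tested miRNAs the split for Thy1-MC-EVs over MH-EVs was 56 higher and 60 lower under the main scaling, 1 and 363 with spike-in scaling, and 67 and 22 with the 75th percentile. With spike-in scaling it was 1 and 373 for MSC-EVs and 0 and 360 for SH-EVs over MH-EVs. With the authors' normalized intensity it was 9 and 217 for Thy1-MC-EVs, 14 and 249 for MSC-EVs and 14 and 218 for SH-EVs over MH-EVs. The members thus moved with the bulk of the tested miRNAs. Single arrays also decided some calls. Without Thy1-MC-EV replicate 2 or MSC-EV replicate 2, miR-125a-3p no longer passed for Thy1-MC-EVs over MSC-EVs. For Thy1-MC-EVs over SH-EVs, miR-99b-5p and miR-125b-1-3p no longer passed without SH-EV replicate 2 or SH-EV replicate 3, which left 3 members, miR-99b-5p was also lost without Thy1-MC-EV replicate 1, and miR-125b-1-3p without Thy1-MC-EV replicate 2 or SH-EV replicate 1. For SH-EVs over MH-EVs, leaving out any of the 6 arrays removed miR-125b-5p, miR-125b-1-3p or both, and 2 or 3 members were left. For MSC-EVs over MH-EVs, miR-99a-5p was lost without MSC-EV replicate 1, MSC-EV replicate 3 or MH-EV replicate 3.

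The median log2 difference of the 5 guide arms was 1.44 for Thy1-MC-EVs over MH-EVs and 0.83 for Thy1-MC-EVs over MSC-EVs, against -0.05 and 0.08 over all tested miRNAs, but the single arms spread widely around it. For SH-EVs over MH-EVs the median was -0.88, against -0.06 over all tested miRNAs, and the single differences were 0.93 for miR-125a-5p, -0.88 for miR-125b-5p, -1.07 for miR-99a-5p, 2.81 for miR-99b-5p and -0.95 for miR-100-5p. The guide arms encoded on chromosome 1 were thus higher and the others lower by their means in SH-EVs under the main scaling. For miR-99a-5p and miR-100-5p the arrays of SH-EVs and MH-EVs overlapped. Without MH-EV replicate 3 their differences shrank to -0.34 and -0.20. Of the 4 tested passenger arms, only miR-125a-3p and miR-125b-1-3p were detected on every array, and no median is given for them.

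The scale set between MH-EV arrays and the others decides the sign of many differences from MH-EVs. With the main scaling the median difference of all tested miRNAs was -0.05 for Thy1-MC-EVs, -0.12 for MSC-EVs and -0.06 for SH-EVs over MH-EVs, and with spike-in scaling it was -2.22, -2.60 and -2.23. Relative to that median, Thy1-MC-EVs over MH-EVs remained at 1.67 to 2.33 for miR-125a-5p, 0.74 to 1.49 for miR-125b-5p, 1.66 to 2.59 for miR-99b-5p, 2.38 to 2.76 for miR-125a-3p and 2.00 to 2.62 for miR-125b-1-3p over all scalings. On the same relative scale SH-EVs over MH-EVs was 2.68 to 3.79 for miR-99b-5p and -1.64 to -0.82 for miR-125b-5p. For MSC-EVs over MH-EVs, miR-125b-5p ranged from -0.17 to 1.36 and so had no settled direction even relative to the other miRNAs.

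**Figure D5:**
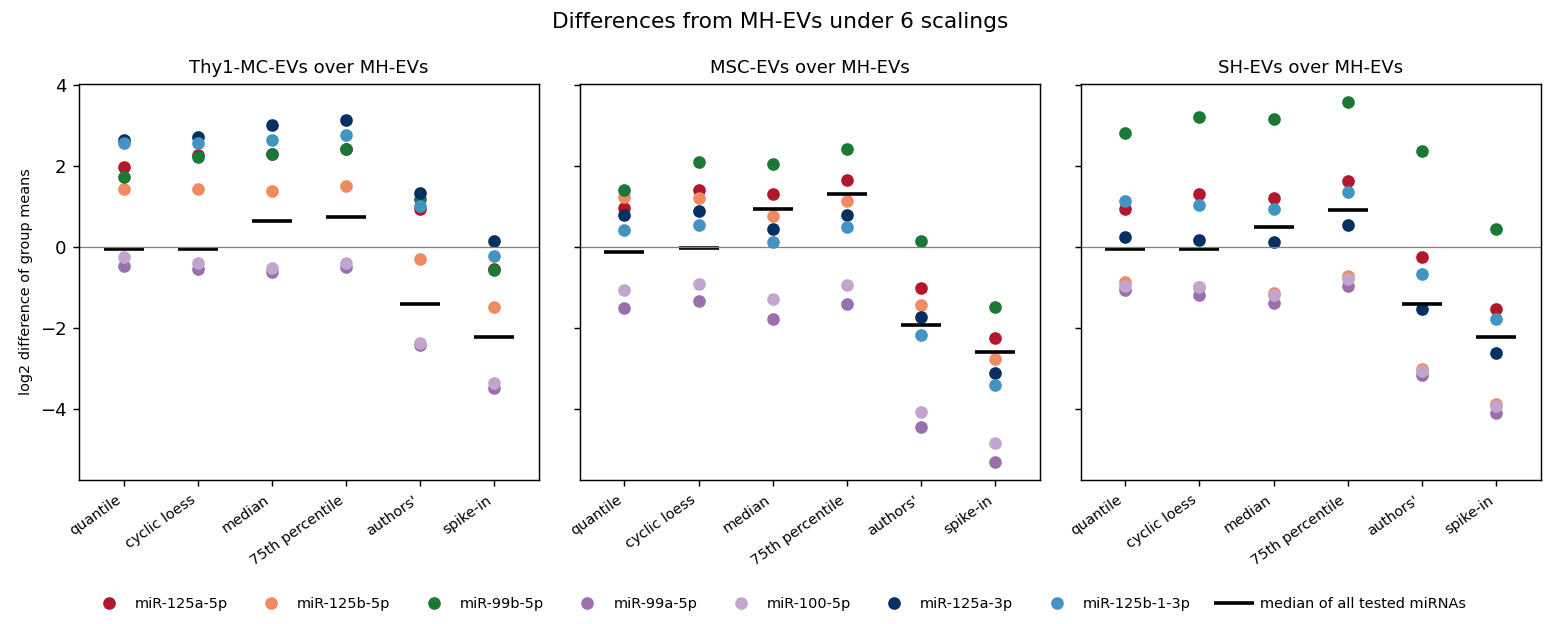
Log2 difference of group means over MH-EVs (y axis) for the 7 members detected on all arrays, under 6 ways to scale the arrays (x axis), with 1 panel per source and a black bar for the median of all tested miRNAs. With spike-in scaling the median falls to between -2.60 and -2.22 and most members lie below 0, while miR-99b-5p in SH-EVs and miR-125a-3p in Thy1-MC-EVs stay above 0 in all 6.

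The relatives were let-7a, let-7c and let-7e arms of the clusters, both arms of miR-351, and miR-10a-5p and miR-10b-5p. Of them only miR-351-5p shares a seed with a member, and the miR-351 and miR-10 rows lie outside the clusters. In all 12 were listed, 10 were on the array and 7 were tested. Past the threshold, 3 were higher and 0 lower for Thy1-MC-EVs over MSC-EVs, 2 higher and 1 lower over SH-EVs, and 3 higher and 0 lower over MH-EVs. MiR-10a-5p was among the higher ones in each of these comparisons under the main scaling. Its difference for Thy1-MC-EVs over MH-EVs ranged from -1.18 to 1.80 over the scalings, so its sign depended on them. For MSC-EVs, 0 were higher and 1 lower over SH-EVs and 1 higher and 2 lower over MH-EVs, and for SH-EVs over MH-EVs 1 was higher and 1 lower. Where a count was 0, limma gave 2 lower for Thy1-MC-EVs over MSC-EVs, 1 lower over MH-EVs and 0 higher for MSC-EVs over SH-EVs at an unadjusted p under 0.05.

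Let-7e-5p, which lies between Mir99b and Mir125a on chromosome 1 and belongs to the let-7 family of differentiation-linked miRNAs, followed the order of miR-99b-5p. It averaged 9.20 ± 0.55 in Thy1-MC-EVs, 8.27 ± 0.23 in MSC-EVs, 10.27 ± 0.19 in SH-EVs and 6.56 ± 0.15 in MH-EVs (log2 level ± SD, n = 3 each). SH-EVs exceeded MH-EVs by 3.71 ± 0.24 (limma adjusted p = 2.27e-06), and Thy1-MC-EVs were lower than SH-EVs by 1.07 ± 0.24 (log2 difference of -1.07, limma adjusted p = 0.013). Its difference for MSC-EVs over MH-EVs was 1.70 ± 0.24 (limma adjusted p = 0.00029) and turned to -1.20 under spike-in scaling, the only one of its 6 comparisons in which a scaling changed the sign. In contrast, let-7a-5p and let-7c-5p passed the threshold in none of the 6 comparisons in limma (adjusted p of at least 0.0771 and 0.0579), and mature let-7a is made from several genes.

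MiR-351-5p, a rodent miRNA with the seed of miR-125a-5p and miR-125b-5p, exceeded its MSC-EV level in Thy1-MC-EVs by 0.69 ± 0.15 (limma adjusted p = 0.00758) and its SH-EV level by 0.54 ± 0.15 (limma adjusted p = 0.0339). Against MH-EVs the difference was 0.61 ± 0.15 (limma adjusted p = 0.00998) and turned to -1.89 with spike-in scaling. MiR-10a-5p, a miRNA of the Hox gene clusters whose sequence resembles the miR-99/100 family, averaged 8.82 ± 0.13 in Thy1-MC-EVs, 6.41 ± 0.08 in SH-EVs and 7.43 ± 0.46 in MH-EVs, and was not detected on any MSC-EV array. Thy1-MC-EVs exceeded SH-EVs in it by 2.41 ± 0.20 (limma adjusted p = 2.64e-05), although only 2 of the 3 SH-EV arrays detected it. All 3 miRNAs with the miR-125 guide seed were thus highest in Thy1-MC-EVs by their means under the main scaling, although miR-125b-5p overlapped with MSC-EVs and the differences of all 3 from MH-EVs turned negative with spike-in scaling.

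The miRNA outside the families whose 4 source means were most like those of miR-125b-5p was miR-145-5p, a miRNA of smooth muscle and other mesenchymal cells. Likeness was the root mean square difference of the centred source means, at 0.27 for miR-145-5p, 0.44 for miR-339-5p and 0.45 for miR-378a-5p, where the means of miR-125b-5p spanned 2.31. MiR-145-5p averaged 10.49 ± 0.59 in Thy1-MC-EVs, 10.51 ± 0.89 in MSC-EVs, 7.83 ± 0.85 in SH-EVs and 8.61 ± 0.23 in MH-EVs. The most like to miR-100-5p, whose means spanned 1.07, were miR-3541 at 0.11, miR-210-3p at 0.13 and miR-3558-5p at 0.14, while its relative miR-99a-5p stood at 0.16. MiR-210-3p is known for its induction by low oxygen. These likenesses rest on 4 source means each and are descriptions.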

How the data were processed

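The intensities deposited by the authors were raw, background-subtracted and normalized values per probe and array. Per the labels and values, the authors took the background from blank spots and set the median detected intensity of each array to 25. The scanner is not given in the sources used here. Their combined table differs from the per-array values by at most 0.05, and it and the authors' normalized intensity served as alternatives only.

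Raw intensities were background-corrected here against blank spots (mean without 5% at either end) by normexp with offset 50, taken to log2 and quantile-normalized over 727 probes. A limma 3.58.1 model (R 4.3.3) with 1 mean per source was fitted to all 12 arrays for the 387 probes that all arrays of 1 or more sources detected, leaving out 2 flagged values. Adjustment followed Benjamini and Hochberg over all 387. Alternatives varied the background correction, scaling and filter, the test (the methods' t-test), a block for replicate numbers, and the arrays left out. The model was first tested on simulated data. The labels do not say what a replicate number stands for. Arrays of 1 number correlated in their deviations from the source means by 0.20 to 0.32 for Thy1-MC-EVs and MH-EVs, so these arrays may be paired, whereas in each other comparison 1 or more of the 3 correlations was under 0.1 (-0.31 to 0.48 over all), and the fit was kept without the block. With 3 arrays per source, the number of arrays limits the precision.

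The members, relatives, marker lists, comparisons and alternatives were chosen with earlier results of these data known. By the rule for named miRNAs, all members, the listed relatives and markers and the 3 miRNAs most like miR-125b-5p and miR-100-5p may be named. Differences between miRNAs of 1 family were added after seeing the data. The epithelial, leukocyte and endothelial lists were computed too. Of 5 epithelial miRNAs 2 were tested and 1 was higher in SH-EVs than in each other source. Leukocyte miRNAs summed to 398 to 497 in Thy1-MC-EVs, 702 to 962 in MSC-EVs, 303 to 312 in SH-EVs and 354 to 427 in MH-EVs, and endothelial ones to 208 to 281 in Thy1-MC-EVs, 261 to 302 in MSC-EVs, 136 to 146 in SH-EVs and 189 to 276 in MH-EVs.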

Additional observations from a re-analysis of the deposited data

How the results depend on the processing

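Spike-in scaling reversed called differences over MH-EVs to -0.55 (Thy1-MC-EVs), -2.24 (MSC-EVs) and -1.52 (SH-EVs) for miR-125a-5p, -1.48 and -2.77 (Thy1-MC-EVs, MSC-EVs) for miR-125b-5p, -0.56 and -1.48 (Thy1-MC-EVs, MSC-EVs) for miR-99b-5p, and -0.22 and -1.79 (Thy1-MC-EVs, SH-EVs) for miR-125b-1-3p. The authors' normalized intensity reversed such differences to -1.02 and -0.25 (MSC-EVs, SH-EVs) for miR-125a-5p, -0.30 and -1.44 (Thy1-MC-EVs, MSC-EVs) for miR-125b-5p and -0.67 (SH-EVs) for miR-125b-1-3p. The cause was not tested. The remaining alternatives reversed no called difference.

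Members past the threshold numbered 3 for Thy1-MC-EVs over MSC-EVs, 5 over SH-EVs and 5 over MH-EVs, 2 for MSC-EVs over SH-EVs and 4 over MH-EVs, and 4 for SH-EVs over MH-EVs. The backgrounds of these main counts are given above. For Thy1-MC-EVs over SH-EVs the count was 3 with the median (16 higher and 8 lower of all tested) and 2 with the 75th percentile (8 and 14). It was 1 with the spike-in control (4 and 1) and 3 with the authors' normalized intensity (18 and 21). For MSC-EVs over SH-EVs the member count was 0 with the spike-in control, where limma gave 3 at an unadjusted p under 0.05, and 8 of all tested miRNAs were higher and 41 lower. For MSC-EVs over MH-EVs the member count was 7 with the median, 9 with the spike-in control and 7 with the authors' normalized intensity. Of all tested miRNAs 214 were higher and 39 lower, 1 and 373, and 14 and 249 in the same order. For SH-EVs over MH-EVs the member count was 8 with the spike-in control (0 higher and 360 lower of all tested), 7 with the authors' normalized intensity (14 and 218) and 2 with no filter on dim probes. The methods' t-test after Benjamini-Hochberg adjustment gave 0, 1 and 3 for Thy1-MC-EVs over MSC-EVs, SH-EVs and MH-EVs, 1 and 2 for MSC-EVs over SH-EVs and MH-EVs, and 2 for SH-EVs over MH-EVs, and 3, 5, 5, 2, 3 and 4 unadjusted. Over all tested miRNAs this t-test gave 23, 17, 74, 56, 89 and 80 adjusted and 121, 102, 142, 129, 148 and 152 unadjusted in that order. Leaving out 1 array gave 2 to 4, 3 to 5 and 5 for the Thy1-MC-EV comparisons in that order, 2 and 3 to 4 for MSC-EVs, and 2 to 3 for SH-EVs over MH-EVs.

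With the replicate number as a block the counts were 3, 5, 5, 2, 4 and 4 with the same members, so the block changed no call. Of 756 alternative values of single differences 604 moved by less than the spread, 138 moved more without a reversed call and 14 reversed. All 156 of the arm differences stayed within the spread.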
